A study of Mus musculus with 3 samples.

Results

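The genes that lie on either side of Lrrc10 on mouse chromosome 10 were examined in hearts labelled Lrrc10-/- and in wild-type hearts. The window ran from 106500000 to 126000000 (mm9), and it took in each gene probe of the array whose position in the files lay on that stretch. The Lrrc10 probe itself and the names that start with Kcn, Rpl or Rps were left out, which removed 5 of 244 probes. The remaining 239 of 41174 gene probes carried 142 of 27630 names, and 116 of them lay before and 123 after Lrrc10 in the direction of rising coordinates. The rule uses positions and names only, and no measured value.

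RNA was taken on embryonic day 15.5 from C57BL/6 embryos of crosses between Lrrc10+/- parents. The arrays, 3 in all, were two-colour whole-genome arrays from Agilent with probes of 60 bases. On each, RNA from 2 Lrrc10-/- hearts was pooled and labelled with Cy5, and RNA from 2 Lrrc10+/+ littermate hearts was pooled and labelled with Cy3. Each array is 1 replicate of the comparison, and the dyes were not swapped on any array, so that genotype and dye cannot be told apart. The labels of the Cy3 channel also hold an adult time of sacrifice, and it was not settled whether 1 wild-type pool served all arrays. The mice had been crossed repeatedly to C57BL/6. Which part of Lrrc10 the allele removes, and the strain in which it was made, are not given in the sources used here.

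Lrrc10 codes for a protein of cardiomyocytes that is built of leucine-rich repeats. When a targeted allele is moved onto another strain by repeated backcrosses, the DNA closest to it is inherited along with it more often than DNA farther away, and embryos homozygous for the allele are then homozygous for that stretch too. For this reason the neighbours of a targeted gene are commonly looked at in their own right. The stretch around Lrrc10 holds genes of RNA processing (Cpsf6, Cnot2, Nup107), of p53 and ubiquitin control (Mdm2, Cand1, Usp15), of membrane traffic (Rab21, Rab3ip, Rap1b), both mouse lysozyme genes (Lyz1, Lyz2), and Hmga2, a chromatin protein of embryonic growth.

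The Lrrc10 probe (A_51_P441687, chr10:116483517-116483576, mm9, plus strand) went against the labels. In Cy5, the channel labelled Lrrc10-/-, its processed signals on replicates 1, 2 and 3 were 6294, 8521 and 12640, against 281, 237 and 199.8 in Cy3. The Cy5 signals were above the Cy3 signals on 3 of 3 arrays, with log2 ratios of 3.99, 4.78 and 4.45 (mean 4.41 ± 0.40, SD, n = 3, limma adjusted p = 0.000387). Directions below are therefore given for the channel labelled Lrrc10-/- over the channel labelled wild type, and higher and lower would change places if the labels were exchanged. The sequence of this probe is shown since every distance is counted from its midpoint to the midpoint of the other probe, with the cytosines in capitals.

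Lrrc10 A_51_P441687: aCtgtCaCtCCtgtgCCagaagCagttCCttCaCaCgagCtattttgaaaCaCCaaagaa

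As for the tissue, 12 of 12 genes on a list of cardiomyocyte markers were well above background in both channels on all arrays. None of their 21 tested probes was called. Probes of different genes on that list (Nppa, Myl2 and Tnnt2) shared log2 ratios of -0.33, -0.12 and -0.16 on replicates 1, 2 and 3. Saturation of the marker spots is not given here, so the lack of calls does not show equal cardiomyocyte content. A list of liver genes had unequal signals in the pools of an array, with median log2 ratios of 0.76, -2.32 and 0.13 over their 4 tested probes on replicates 1, 2 and 3 and summed processed signals on replicate 2 of 2609 in Cy5 against 26440 in Cy3, and none was called. The part of liver RNA in the ratios below was not tested. Between 63.9% and 88.9% of gene spots were well above background in Cy5 and between 69.3% and 93.2% in Cy3, with the lowest shares on replicate 3. In pooled hearts, fewer cells of a type and less RNA per cell cannot be told apart in any of the ratios below.

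Most genes around Lrrc10 had ratios near 0. Of the 239 probes, 142 (80 names) were well above background in at least 1 channel on all 3 arrays, and these were tested. Both channels were above background on all arrays for 130 of them. Of the 97 probes not tested, 22 were above background on no array in either channel and 75 only on some arrays. Among the 142 tested probes, 5 (3.52%) were called higher in the channel labelled Lrrc10-/- at a limma adjusted p under 0.05, against 395 of 28328 probes (1.39%) over the whole array and 13 of 1205 (1.08%) on the rest of chromosome 10. None was called lower, where the whole array gave 1 probe (0.00353%). The 5 probes belonged to Hmga2, with 2 probes, to Zfc3h1 and to the transcripts AK088988 and AK086934. None of the 5 was called with the scanner software's processed signals, without background correction, without replicate 1 or without replicate 2. Under these settings 0, 1, 2 and 1 probes of the whole array were called higher, so the loss was not particular to the window. Without replicate 3, 16 of 193 tested probes were called higher (8.29%, against 4.77% over the whole array) and 0 lower (0.839% over the whole array).

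At an unadjusted limma p under 0.05, 13 of the 142 probes (9.15%) were higher and 5 (3.52%) were lower, near the 9.07% and 4.26% of the whole array. Median centring in place of loess gave 8 higher and 9 lower, and the processed signals gave 8 and 5. For these settings the shares of the whole array at the unadjusted p are not given here. Probes with a ratio above 0 on all 3 arrays numbered 26 (18.3%, against 19.1% of the whole array), and 21 lay below 0 on all 3 (14.8%, against 17.4%). The median of the 142 mean log2 ratios was 0.018, beside 0.013 over all tested probes. The median size of the log2 ratio, without its sign, was 0.12, beside 0.13. Over the whole window these shares and medians were thus near those of the array. The counts on each side of Lrrc10 are given apart, and the difference between the sides was not tested. Before Lrrc10, 17 of 63 probes were above 0 and 4 below 0 on all 3 arrays (7 and 0 at an unadjusted limma p under 0.05, median 0.048). After it, 9 of 79 were above 0 and 17 below 0 (6 and 5, median -0.0026).

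**Figure D1:**
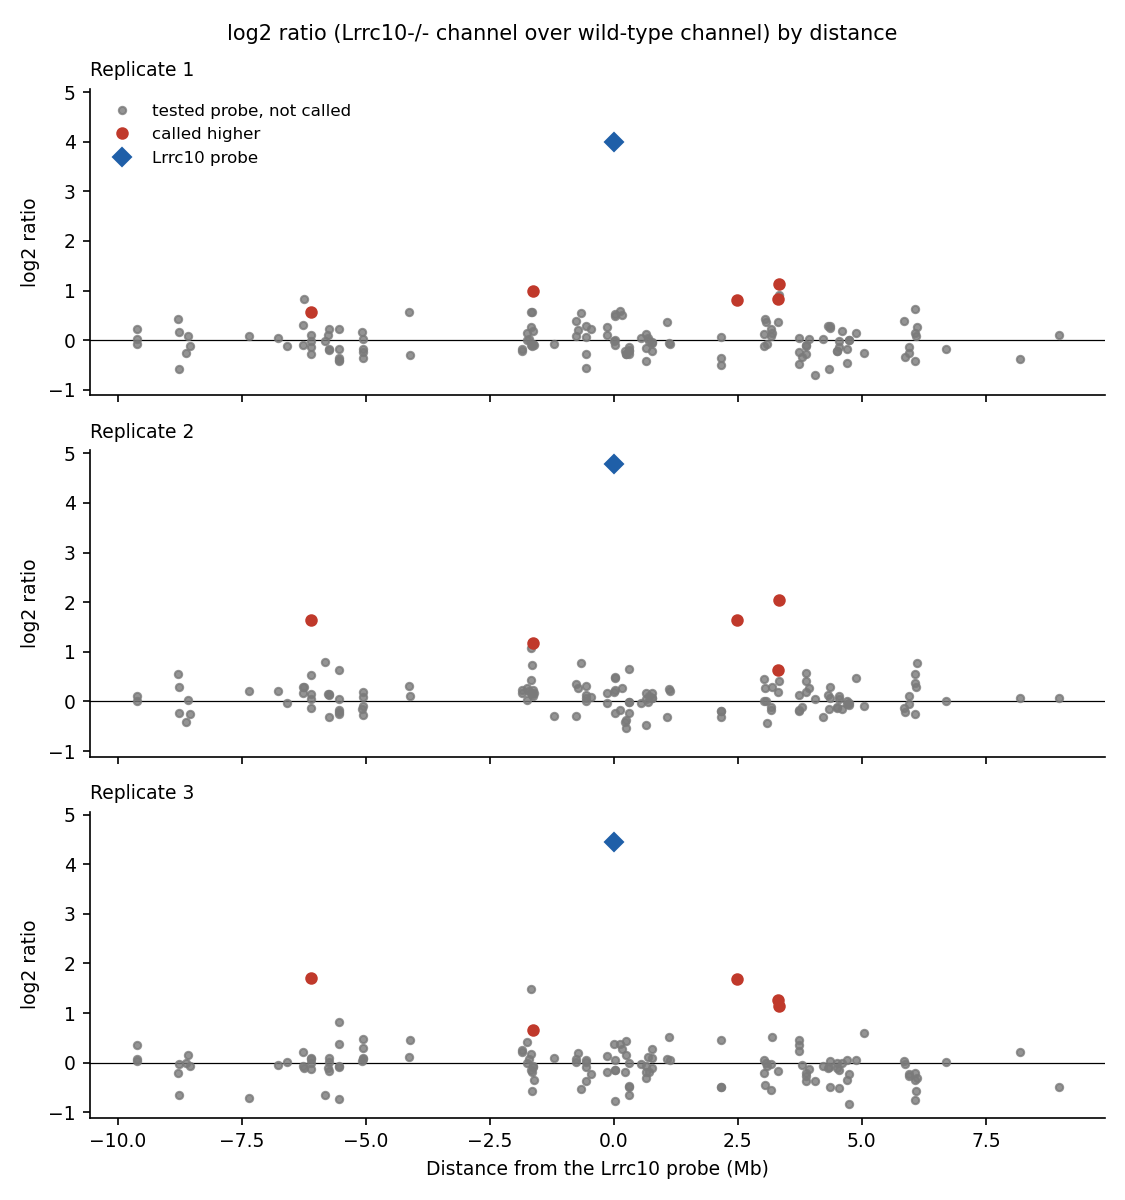
The log2 ratio of the channel labelled Lrrc10-/- over the wild-type channel (vertical axis) of each of the 142 tested probes is plotted against its distance from the Lrrc10 probe in Mb (horizontal axis), with 1 panel per array. Grey points are probes that were not called, red points are the 5 probes called higher, and the blue diamond is the Lrrc10 probe, which lies between 3.99 and 4.78 and far above its neighbours on each array.

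The called probes all lay more than 1 Mb from Lrrc10. Within 1 Mb on either side lay 50 probes, of which 34 were tested. None was called by limma, with 1 higher and 2 lower at an unadjusted limma p under 0.05. Over the whole array 1.39% of probes were called higher, and 9.07% were higher and 4.26% lower at that unadjusted p. At so low a share of calls, 0 of 34 does not set the near probes apart from the array. Their mean log2 ratios ran from -0.40 to 0.35 (median 0.037). Between 1 and 2 Mb, 1 of 18 tested probes was called (median 0.084), between 2 and 5 Mb 3 of 42 (median 0.011), and beyond 5 Mb 1 of 48 (median -0.0079). Over the 142 probes, Spearman's rho between the distance and the mean log2 ratio, with both sides pooled, was -0.085, and it was -0.092 for the size of the ratio. These are descriptions, since probes of 1 gene share transcripts and all probes share the 3 arrays.

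**Figure D2:**
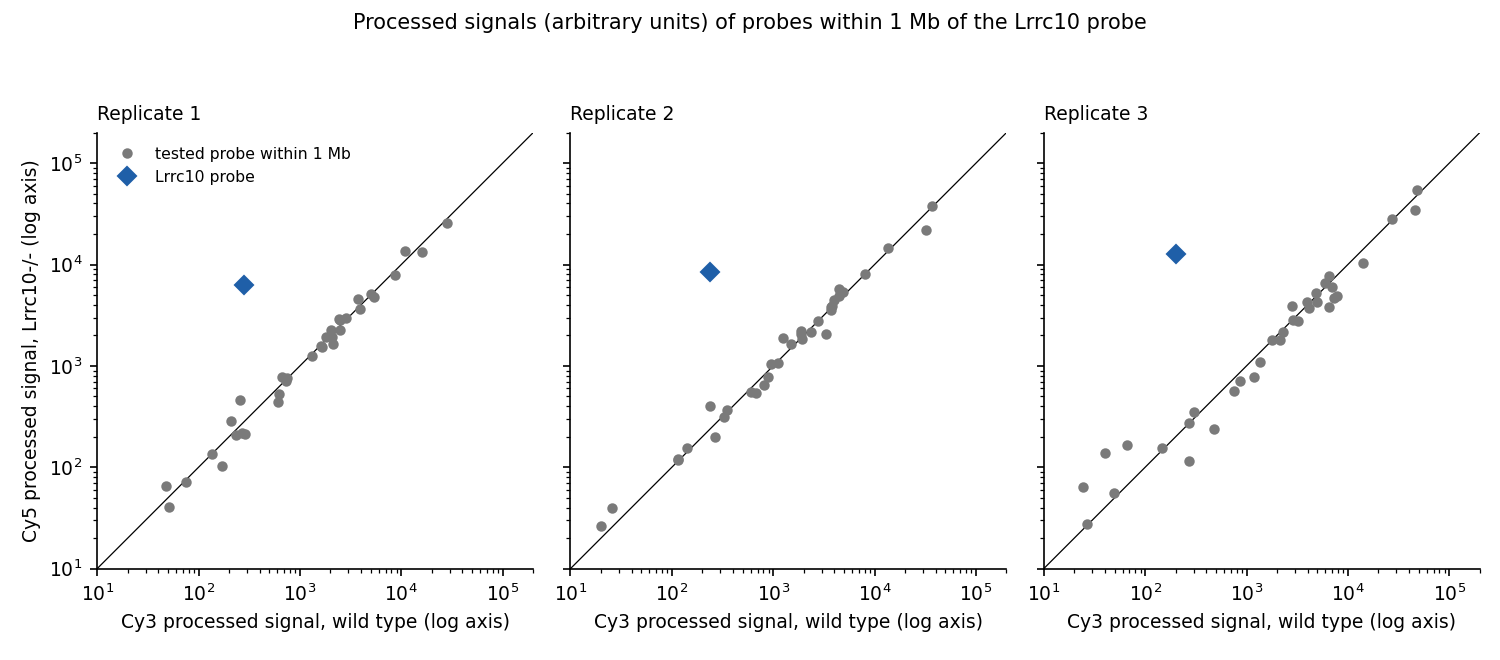
Processed Cy5 signal (labelled Lrrc10-/-) against processed Cy3 signal (wild type), both on log axes in arbitrary units, for the tested probes within 1 Mb of Lrrc10 (grey) and the Lrrc10 probe (blue diamond) on each array. The line marks equal signals. Most neighbours lie near the line, with a few low signals off it on replicate 3 (Frs2 at 137.1 against 40.4, Cpm at 115.7 against 268.7), whereas Lrrc10 lies far above it on all 3 arrays.

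Cct2, a subunit of the chaperonin that folds actin and tubulin, was the nearest tested gene. Its probe 0.0066 Mb after Lrrc10 had processed signals of 25710, 37420 and 54440 in Cy5 and 28240, 37160 and 48470 in Cy3, and log2 ratios of -0.0091, 0.19 and 0.38. On 1 of the arrays its Cy5 spot was saturated. A second Cct2 probe, 0.015 Mb after Lrrc10, pointed the other way, with log2 ratios of -0.10, -0.22 and -0.78 (mean -0.37, limma adjusted p = 0.375). The first probe did not pass the threshold either (mean 0.19, limma adjusted p = 0.567), and the pair gives no direction for Cct2. The pair is shown since it lies closest to Lrrc10, with cytosines in capitals.

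Cct2 A_51_P363914, chr10:116490137-116490196, minus strand, mean log2 ratio 0.19: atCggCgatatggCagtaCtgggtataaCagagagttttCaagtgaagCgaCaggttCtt

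Cct2 A_52_P369232, chr10:116498411-116498564, minus strand, mean log2 ratio -0.37: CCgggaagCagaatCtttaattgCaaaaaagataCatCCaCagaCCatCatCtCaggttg

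Frs2, an adaptor of fibroblast growth factor receptors, followed with 3 tested probes between 0.024 and 0.027 Mb after Lrrc10. Their mean log2 ratios were 0.27, 0.29 and 0.092. The probe at 0.29 had signals of 1912, 2221 and 1786 in Cy5 and 1796, 1872 and 2138 in Cy3, and log2 ratios of 0.53, 0.48 and -0.14 on replicates 1, 2 and 3. Replicate 3 thus lay on the other side of 0 from the others, and the limma adjusted p was 0.487. Without replicate 3 the same probe passed the threshold (0.50, limma adjusted p = 0.0390).

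Yeats4, a subunit of chromatin complexes that reads acetylated histones, had the highest ratio within 1 Mb. It had signals of 13490, 14530 and 27900 in Cy5 and 10930, 13420 and 27250 in Cy3. The log2 ratios of 0.51, 0.27 and 0.27 were above 0 on 3 of 3 arrays (mean 0.35 ± 0.14, SD, n = 3), and the limma adjusted p was 0.276.

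The lysozyme genes Lyz2 and Lyz1, which macrophages and other myeloid cells express, lay 0.23 and 0.24 Mb after Lrrc10. The Lyz2 probe A_52_P238027 had signals of 13430, 21660 and 34720 in Cy5 and 15880, 31840 and 45530 in Cy3, with log2 ratios of -0.21, -0.41 and -0.19 (limma adjusted p = 0.387). The Lyz1 probe had 1632, 2065 and 3857 in Cy5 and 2120, 3345 and 2833 in Cy3, with log2 ratios of -0.27, -0.53 and 0.43 (limma adjusted p = 0.820). Lyz1 was thus lower in Cy5 on replicates 1 and 2 and higher on replicate 3. The Lyz2 probe A_51_P321150 followed the same order of signs, at -0.28, -0.38 and 0.15. Both genes are close copies of each other, and these probes may read both. Of the macrophage markers on a list of 12 genes, the complement gene C1qa had log2 ratios of -0.51, -0.58 and 0.53, C1qb had -0.26, -0.39 and 0.28, and the Fc receptor gene Fcgr3 had -0.25, -0.14 and 0.33 at its first probe. Others on the list did not follow this order. The receptor gene Csf1r was above 0 on 3 of 3 arrays at 2 of its 3 tested probes (0.66, 0.53 and 1.51, and 0.75, 0.12 and 1.54), the mannose receptor gene Mrc1 had 0.20, 0.20 and -0.14, and C1qc had 0.20, -0.19 and -0.093. All 11 genes of that list found on the array were well above background in both channels on all arrays, and none of their probes was called. Their tested probes had medians of -0.086, -0.13 and 0.086 on replicates 1, 2 and 3, and the sums of their processed signals came to 7686, 8126 and 18770 in Cy5 and to 6823, 8593 and 12100 in Cy3. The part of macrophage number in the lysozyme ratios was not tested.

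Cpsf6, a subunit of the complex that cleaves pre-mRNA ends before polyadenylation, had 4 tested probes with mean log2 ratios of -0.31, -0.076, -0.0028 and -0.29. The mean was below 0 at each of the 4 probes, and on the arrays the probe at -0.0028 ranged from -0.48 to 0.66. The lowest unadjusted p of the gene was 0.0495, at the probe with -0.29, whose log2 ratios were -0.15, -0.24 and -0.49. None of the 4 passed the limma threshold, with adjusted p from 0.374 to 0.997. Cpm, a carboxypeptidase of the cell surface, had the lowest ratio within 1 Mb. Its tested probe had signals of 217, 649 and 115.7 in Cy5 and 266, 809.7 and 268.7 in Cy3, and the log2 ratios of -0.41, -0.48 and -0.32 were below 0 on 3 of 3 arrays (mean -0.40 ± 0.082, SD, n = 3, limma adjusted p = 0.202). The other Cpm probe was above background on 2 arrays in Cy5 and on 1 in Cy3, and it was not tested. Its processed signals were higher in Cy5 on all 3 arrays (32.6, 69.3 and 29.1 against 12.9, 27.5 and 6.24). The pair of probes thus differed in sign, but part of these signals was not above background. Without replicate 3 this probe was called higher (0.51, limma adjusted p = 0.0414).

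Mdm2, the ubiquitin ligase that targets p53, gave mean log2 ratios of 0.076 and -0.095 at its tested probes. The first of them had signals of 1912, 2793 and 3757 in Cy5 and 2089, 2797 and 4090 in Cy3. Neither differed beyond the spread of the arrays (limma adjusted p = 0.826 and 0.774). The genes between Mdm2 and the 1 Mb limit had means from -0.087, at LOC100048397, to 0.13, at a Rap1b probe, and none was called. Slc35e3, a sugar transporter-like membrane protein, was at 0.047. Nup107, a scaffold protein of the nuclear pore, was at -0.033. Rap1b, a small GTPase of adhesion, was at 0.13 and 0.044.

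On the side before Lrrc10, the nearest gene, Best3, a member of the bestrophin channel family, was read by 1 probe that was above background on only some arrays (Cy5 35.3, 73.4 and 17.4, Cy3 26.1, 40.3 and 52.6), and it was not tested. Rab3ip, an exchange factor for the GTPase Rab8, had mean log2 ratios of -0.035 and 0.19. Cnot2, a subunit of the complex that shortens poly(A) tails, had -0.22, 0.17 and 0.075 at 3 probes, with signals between 1846 and 10440 in Cy5. The receptor tyrosine phosphatase genes lay 0.66 to 0.93 Mb before Lrrc10. Ptprr, the phosphatase of MAP kinases among them, was at 0.15 and 0.050. Ptprb, the endothelial phosphatase VE-PTP, was at 0.23 and 0.27, with 2 further probes not above background. The Ptprb probe at 0.27 had signals of 771, 1866 and 4859 in Cy5 and 661, 1241 and 7879 in Cy3 and log2 ratios of 0.56, 0.77 and -0.52. It therefore changed sign on replicate 3, and it passed the threshold only without that replicate (0.67, limma adjusted p = 0.00513). Of the endothelial markers, 8 of 8 genes were well above background throughout, and their median log2 ratios were -0.13, 0.14 and -0.081 on the 3 arrays. The part of endothelial cell number in the Ptprb ratio was not tested.

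The probes called higher lay 6.11 and 1.63 Mb before Lrrc10 and 2.48, 3.32 and 3.33 Mb after it. AK088988, a transcript known only by its accession-like name, had signals of 1104, 1167 and 4613 in Cy5 and 598, 299.9 and 1102 in Cy3. Its log2 ratios were 0.58, 1.64 and 1.71 (mean 1.31 ± 0.64, SD, n = 3, limma adjusted p = 0.0416). The nearest tested probes, of Csrp2, a LIM protein of smooth muscle, and of Zdhhc17, a palmitoyltransferase, had means of -0.093 for Csrp2 and between -0.047 and 0.25 for Zdhhc17. The Csrp2 probe was saturated in Cy5 on 2 arrays and in Cy3 on 1, so its ratio is a weak comparison. AK086934, of the same kind, had 1322, 1939 and 9249 in Cy5 and 698, 604.8 and 2649 in Cy3, with log2 ratios of 0.80, 1.64 and 1.68 (mean 1.37 ± 0.49, SD, n = 3, limma adjusted p = 0.0231). Each was read by 1 probe, so no other probe can show whether the transcript or the probe differed.

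Hmga2, an AT-hook chromatin protein that is abundant in embryos and falls silent in most adult tissues, was the only gene of the window with more than 1 called probe. The probe 3.33 Mb after Lrrc10 had signals of 1692, 5936 and 19030 in Cy5 and 878, 1603 and 9350 in Cy3, and log2 ratios of 1.13, 2.04 and 1.14 (mean 1.44 ± 0.52, SD, n = 3, limma adjusted p = 0.0226). A second probe, at 3.32 Mb, had 269, 173 and 609 in Cy5 and 133, 107.1 and 104.7 in Cy3, and log2 ratios of 0.83, 0.62 and 1.26 (mean 0.90 ± 0.32, SD, n = 3, limma adjusted p = 0.0377). The remaining Hmga2 probe, next to the second along the chromosome, had 505, 763 and 985 in Cy5 and 455, 735 and 1188 in Cy3. Its log2 ratios of 0.37, 0.18 and -0.17 averaged 0.13 (limma adjusted p = 0.737). The Hmga2 probes thus gave different answers for 1 gene.

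Zfc3h1, a zinc finger protein of nuclear RNA decay, was read by 6 tested probes, and 1 was called. That probe had signals of 1104, 322 and 436 in Cy5 and 596, 130.5 and 189.5 in Cy3, and log2 ratios of 0.999, 1.19 and 0.65 (mean 0.95 ± 0.27, SD, n = 3, limma adjusted p = 0.0268). The other 5 had means from -0.18 to 0.37, none past the threshold. The probe next to it along the gene was at -0.0090, with log2 ratios of -0.072, 0.11 and -0.065. That probe was dim, with signals of 83.5, 62.9 and 37.05 in Cy5 and 80.6, 52.6 and 52.0 in Cy3. In Cy5 it was above background on only 2 arrays, so it is a weak comparison for the called probe. A further Zfc3h1 probe, with log2 ratios of 0.56, 0.73 and -0.18, was called higher without replicate 3 (limma adjusted p = 0.00656).

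The called probes are printed with the probe of the same gene nearest to each that was not called, so that the pairs can be read against each other. Cytosines are in capitals, coordinates are mm9, and the sequences are those of the array files.

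AK088988 A_52_P1059537, called, chr10:110371731-110371790, minus strand: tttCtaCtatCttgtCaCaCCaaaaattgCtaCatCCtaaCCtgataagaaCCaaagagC

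Zfc3h1 A_52_P559478, called, chr10:114849082-114849141, plus strand: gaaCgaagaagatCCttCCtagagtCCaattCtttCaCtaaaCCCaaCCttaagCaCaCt

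Zfc3h1 A_52_P559485, not called, chr10:114848923-114848982, plus strand: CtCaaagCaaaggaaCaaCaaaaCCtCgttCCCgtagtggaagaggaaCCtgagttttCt

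AK086934 A_51_P309874, called, chr10:118961300-118961359, plus strand: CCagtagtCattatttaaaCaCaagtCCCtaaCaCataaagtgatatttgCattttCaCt

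Hmga2 A_52_P373357, called, chr10:119811916-119811975, minus strand: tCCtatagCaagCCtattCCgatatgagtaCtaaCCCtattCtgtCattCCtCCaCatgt

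Hmga2 A_51_P288315, called, chr10:119799670-119799729, minus strand: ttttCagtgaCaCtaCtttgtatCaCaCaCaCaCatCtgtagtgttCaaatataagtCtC

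Hmga2 A_52_P300730, not called, chr10:119798739-119798798, minus strand: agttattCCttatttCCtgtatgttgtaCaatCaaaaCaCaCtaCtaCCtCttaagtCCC

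The called sequences shared a base composition. Each held 13 to 18 cytosines and 6 or 7 guanines, where the median of the 142 tested probes was 11 cytosines and 13 guanines. Of the 11 tested probes of the window with at most 7 guanines, which all held at least 13 cytosines, 5 were called, and of the other 131 none was. The bounds on the counts were set after the values were seen. Not all probes of this composition were high, since the third Hmga2 probe (16 cytosines, 5 guanines, 0.13), a probe of the phosphatase gene Ptprr (17 and 6, 0.050) and a probe of Atxn7l3b, a small paralogue of an ataxin-7-like protein (15 and 6, 0.092), lay near 0. Over the whole array, 53 of 989 tested probes with at least 13 cytosines and at most 7 guanines were called higher (5.36%), and 342 of the other 27339 (1.25%). The share called was 0.297% of probes with at most 8 cytosines and 4.26% of those with at least 17. After a correction of each array's ratios for base content, chosen after seeing the data, 3 of the 5 probes were still called, those of AK086934, Zfc3h1 and the Hmga2 probe at 3.33 Mb (1.25% of the whole array). The other Hmga2 probe and AK088988 then had a limma adjusted p of 0.0547 each.

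**Figure D3:**
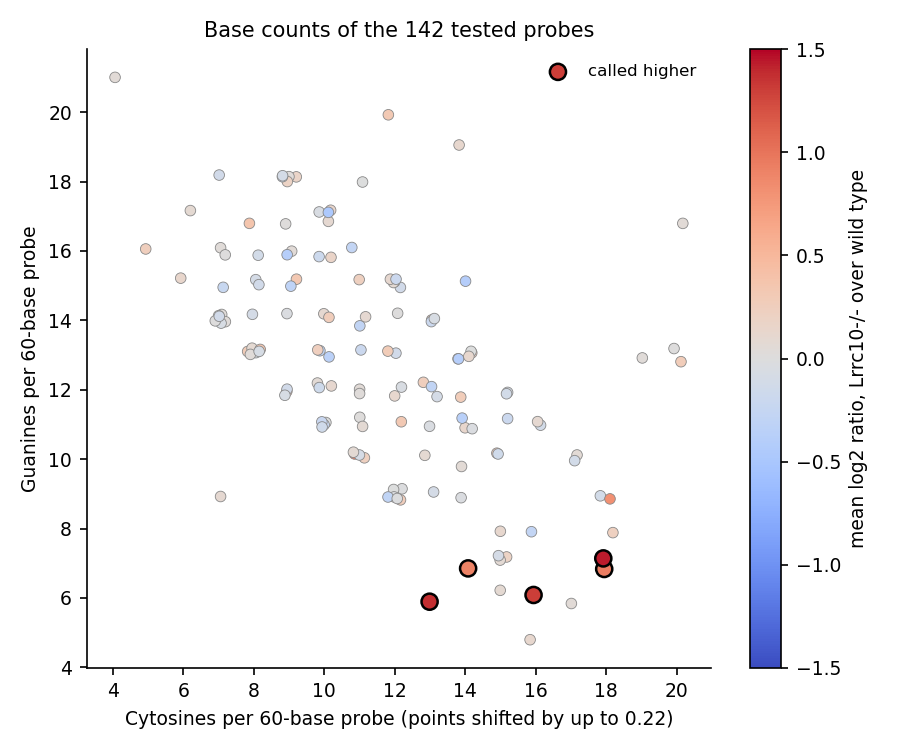
Number of cytosines (horizontal axis) and guanines (vertical axis) in each of the 142 tested 60-base probes, with small random shifts so that points do not hide each other. Colour gives the mean log2 ratio over 3 arrays, and the 5 probes called higher, ringed in black, all lie at the lower right, among probes with at least 13 cytosines and at most 7 guanines.

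Thap2, a protein with a THAP-type DNA-binding zinc finger that neighbours Zfc3h1, had the highest ratio among the probes not called. It had signals of 1350, 1741 and 8301 in Cy5 and 956, 717 and 2609 in Cy3. The log2 ratios of 0.26, 1.08 and 1.49 were above 0 on 3 of 3 arrays (mean 0.95 ± 0.63, SD, n = 3, limma adjusted p = 0.124), and without replicate 3 it passed the threshold (0.67, limma adjusted p = 0.0126). The other Thap2 probes were at 0.39, with 0.57, 0.43 and 0.17 on the arrays (limma adjusted p = 0.260), and at -0.029. Beside Hmga2, the transcript 1700006J14Rik, named here after its values were seen, had log2 ratios of 0.91, 0.41 and 1.15 (mean 0.82, limma adjusted p = 0.0680) and was also called without replicate 3.

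On the lower side, Usp15, a deubiquitinating enzyme 6.08 Mb after Lrrc10, had the lowest mean at 1 of 5 tested probes. It had signals of 1431, 1819 and 1693 in Cy5 and 1771, 1989 and 3009 in Cy3, with log2 ratios of -0.43, -0.26 and -0.74 (mean -0.48 ± 0.25, SD, n = 3, limma adjusted p = 0.198). The other 4 Usp15 probes ran from -0.064 to 0.28, and 2 of them were called higher without replicate 3 (limma adjusted p = 0.0126 and 0.0470), so the probes of this gene differ in sign. After Cpm, described above at -0.40, came Cand1, which regulates the assembly of cullin ubiquitin ligases, with means of -0.39 at each of 2 probes (limma adjusted p = 0.251 and 0.216) and of 0.11 at its remaining probe. The low Cand1 probe A_52_P57308 had 11440, 11230 and 20390 in Cy5 and 13040, 12400 and 30680 in Cy3. Both low probes lay below 0 on 3 of 3 arrays, but neither passed the threshold.

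**Figure D4:**
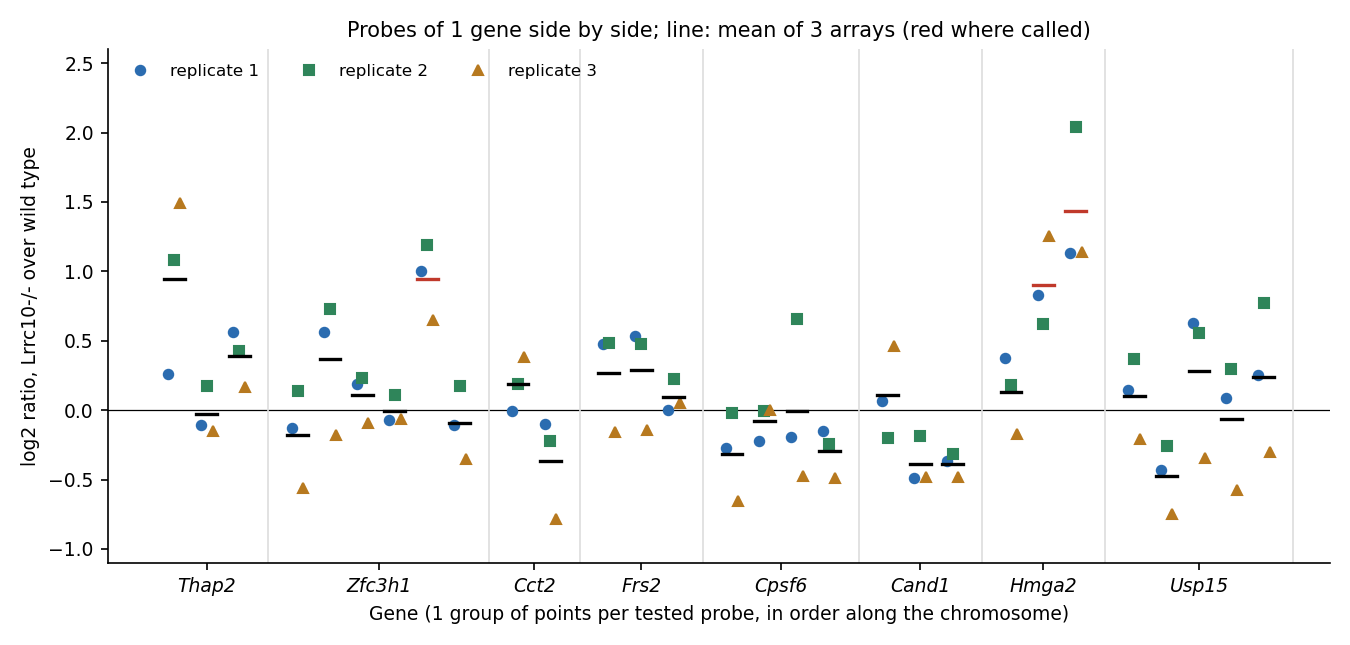
The log2 ratio of every tested probe of 8 genes (vertical axis), grouped by gene and in order along the chromosome (horizontal axis). Circles, squares and triangles are replicates 1, 2 and 3, and lines are means of 3 arrays, in red for the called probes of Zfc3h1 and Hmga2. Within Zfc3h1, Hmga2, Thap2 and Usp15 a single probe or a pair stands apart from the rest of the gene.

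Probes of 1 gene often had means of opposite sign. Of the 39 genes with at least 2 tested probes, 17 had means of 1 sign and 22 had means of both signs. Most means were small (median size 0.12 over the window), and the sign of a mean near 0 carries little. The share of such genes over the whole array is not given here, so mixed signs cannot be called particular to this window. The median distance between the highest and the lowest mean was 0.233 on the log2 scale, and it exceeded 0.5 in 6 genes.

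By role, the medians of the lists of genes written for this stretch ran from -0.14 to 0.092, beside 0.013 over all tested probes, of which 1.39% were called higher. In RNA processing, nuclear pore and translation, 1 of 34 tested probes was called, that of Zfc3h1, and the median was 0.0037 (5 higher and 1 lower at an unadjusted limma p under 0.05). In p53, growth and ubiquitin control, 2 of 19 were called, both of Hmga2, with a median of 0.076 (2 higher and 3 lower at an unadjusted limma p under 0.05). In membrane traffic and small GTPases, 0 of 30 were called (median 0.028, 1 higher and 0 lower at an unadjusted limma p under 0.05). The highest there was Rab21, a GTPase of endosomes, with log2 ratios of 0.15, 0.28 and 0.41 (limma adjusted p = 0.374), while its other probe averaged 0.011. The lowest was Tmbim4, a Golgi protein against cell death, at -0.20 (limma adjusted p = 0.612).

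Among receptors, phosphatases and signalling genes, 0 of 11 tested probes were called (median 0.092, 0 higher and 1 lower at an unadjusted limma p under 0.05). The immune and lysozyme genes also had 0 of 10 called, with 8 of 10 means below 0 (median -0.14) and none past an unadjusted limma p of 0.05. The muscle genes had 0 of 6 called, with a median of -0.096 and none past an unadjusted limma p of 0.05. They ran from Ppp1r12a, the myosin phosphatase targeting subunit, at -0.28 (log2 ratios of -0.58, -0.24 and -0.021) to a probe of Msrb3, a methionine sulfoxide reductase, at 0.12.

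Several genes of the stretch were too dim to test. The single probes of the skeletal muscle regulators Myf5 and Myf6 had processed signals of at most 14.4 and 71.2 in either channel, and Myf5 was above background on no array. Lgr5, a receptor for R-spondins, reached 66.2. The probes of the cytokine genes Ifng and Il22 were above background on some arrays or on none, and 1 Ifng probe had signals of 220, 292 and 16.7 in Cy5 and 145, 414.7 and 14.9 in Cy3. That Ifng probe was above background on 2 arrays in each channel, with log2 ratios of 0.32, -0.47 and 0.055 on replicates 1, 2 and 3. None of these probes met the rule for testing, so no difference was tested for them.

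Across arrays, the ratios of the window were only partly shared. Pearson's r between replicates 1 and 2 was 0.624 over 141 probes, and with replicate 3 it was 0.325 and 0.391. Without the 5 called probes, r was 0.488 for replicates 1 and 2 and 0.089 and 0.017 for the pairs with replicate 3. Probes are called because their ratios agree between arrays, so leaving them out can lower r by that choice alone. Over all tested probes the values were 0.510, 0.219 and 0.223. Called probes were kept there, so these values compare with the whole window only. These correlations are across probes, which are not independent replicates.

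The limits of the window cut through no called gene. At the low end, the first probe inside (LOC432500, with ratios of -0.11, -0.11 and 0.047) and the last outside (E030002G19Rik, with 0.53, -0.34 and 0.054) were not tested. At the high end, the last probe inside was that of Lrig3, a leucine-rich repeat receptor of growth factor signalling, at 0.10, 0.077 and -0.49, and the first outside, 4930456K20Rik, was not tested (-0.12, -0.27 and -0.0044).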

How the data were processed

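The deposited files hold scanner output of 3 two-colour arrays. Per the file headers, spot intensities were made by the authors with Agilent Feature Extraction 9.1.3.1 (G2505B scanner, local background) for replicate 1 and 10.7.3.1 (G2505C scanner) for replicates 2 and 3. The submitters' processing notes name version 9.5. Processed intensities had been background-subtracted and dye-normalized by that software. The deposited log10 ratio is processed Cy5 over processed Cy3, and the deposited series table equalled it (largest difference 0). Probe positions (mm9) came from the files of replicates 2 and 3, which named the same 244 probes. Symbols were updated through RefSeq for 185 of 239 probes. Exon annotation in mm9 was not used here.

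limma 3.58.1 (R 4.3.3) gave the log2 ratios. Mean signals were corrected by normexp on the median local background (offset 50) and normalized by loess within arrays, with control spots at weight 0. Non-uniform spots were dropped, spots of 1 probe averaged, and 28328 probes tested against 0 (lmFit, eBayes, two-sided, Benjamini-Hochberg over all tested probes, threshold 0.05). The script was tested on simulated shifts. Processed signals are quoted as deposited, so their ratio can differ from the normalized log2 ratio. The number of arrays limits the precision, and the spread is between arrays. It was not settled whether 1 wild-type pool served all arrays, so this spread may leave out the variation between wild-type pools.

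Genes were named if they lay within 1 Mb of Lrrc10, were called, were among the 6 highest or lowest probes with 1 direction on all arrays, were the extremes of a list, or lay at the limits of the window. The extremes of 1 list are not reported here. Members and lists were chosen with earlier results of these data known. Alternatives covered background correction, normalization, scaling, filters, a block for the software version, an intensity trend, array weights, the methods' t-test and leaving out each array. Base content correction was added after seeing the data.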

Additional observations from a re-analysis of the deposited data

How the results depend on the processing

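The 5 probes called higher became 0 with no background correction, with the software's processed signals, with the series table and with scaling between arrays. They also became 0 with no filter on dim probes, with a block for the software version, and with the methods' t-test after Benjamini-Hochberg adjustment. Over the whole array these settings called 1, 0, 0, 0, 145 (0.352%), 1 and 0 probes higher, in the same order. The count stayed at 5 when both channels had to be above background (1.61% called higher over the whole array). It also stayed at 5 with an intensity trend (1.63%) and with array weights (1.77%). The count was 3 with 1 probe per gene, for which the share of the whole array is not given here. It was also 3 after base content correction, against 353 probes (1.25%) over the whole array. Leaving out 1 replicate gave 0 to 16 (0 without replicate 1 or 2, 16 without replicate 3), and the count of probes called lower was 0 each time. The whole array gave 2 probes called higher without replicate 1, 1 without replicate 2 and 1687 (4.77%) without replicate 3. The methods' t-test without adjustment gave 7 higher and 2 lower of 142 tested probes, and the share of the whole array is not given here. Within 5 Mb of Lrrc10 4 were called, where 1.39% of the whole array was called higher. Median centring gave 4 of 142 (2.82%), against 266 of 28328 (0.939%) over the whole array. The window's median log2 ratio moved between -0.014 and 0.036 and from -0.012 to 0.026 without 1 replicate. The called probes kept their sign under each of 15 alternatives, and their adjusted p (limma, or the methods' t-test) ranged from 5.57e-07 without replicate 3 to 0.578 with the processed signals. Over the same alternatives the adjusted p ranged from 0.0126 to 0.592 for the Thap2 probe with the highest ratio, from 0.0390 to 0.974 for the Frs2 probe and from 0.00513 to 0.994 for the Ptprb probe that passed without replicate 3. Of the named probes, 49 were tested, and none changed direction past the threshold under an alternative. The causes were not tested. Each array pairs a pool labelled Lrrc10-/- with a wild-type pool, and the limma fit to the ratios within arrays uses that pairing. The lower share of spots above background on replicate 3 limits which probes could be tested, since 193 probes passed without it.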
